A study of Mus musculus with 4 samples.

Results

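The genes described here are the protein-coding genes of the mouse H2 complex that do not belong to antigen presentation. They were chosen by position: the start lies from 33.9 to 37.2 Mb on chromosome 17 (GRCm38), and the gene has a CPM (read pairs of the gene per 1e+06 counted) of at least 1 in at least 2 of the 4 libraries. The first of them is Daxx (chr17:33909414-33915590) and the last Gabbr1 (chr17:37045966-37075067). Class I and class II genes, peptide loading and proteasome genes, ribosomal protein genes, complement, the cluster of tumour necrosis factor genes, Notch4 and Col11a2 were left out. Of 167 protein-coding genes in the interval, 121 were not left out by name, and 81 of these 121 reached the minimum, among 55421 genes in the files and 14492 genes at the minimum in all.

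RNA was sequenced from uterine tissue at E18.5 of pregnancy, from 2 WT mice of the strain C57BL/6J and 2 Qa-2- mice of the strain B6.Cg-H2b3/FlaCmwJ (B6.K1), with 1 library per mouse and no treatment in either group. Mice were mated within their strain, and the strains came from different suppliers. B6.K1 is a congenic strain that arose spontaneously from crosses of H2 strains and carries no targeted deletion, so H2 sequence next to the Qa-2 genes may also be of other origin. How far such sequence reaches was not analysed here, and strain, supplier and the lack of Qa-2 cannot be told apart in this comparison.

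The major histocompatibility complex, H2 in the mouse, is known for the molecules that present peptides to T-cells. Most genes between them do other work: they encode enzymes of lysosomes and lipids, chromatin and splicing proteins, chaperones, tRNA synthetases and cytoskeletal proteins. They lie close together between and beside the class I and class II genes, so that they tend to be inherited with them.

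Total counts lay between 33286390 and 41041299 read pairs per library. H2-Q6 and H2-Q7, which encode Qa-2, had 1192 counts or more in each WT library and 4 counts or fewer in each Qa-2- library, which is the order the labels state. Markers of the uterus were abundant in every library but not at equal levels: Myh11 overlapped between groups (2312 to 6916 CPM), Acta2 and Des were higher in both WT libraries with log2 fold changes of 0.91 and 1.22, and the estrogen receptor gene Esr1 was higher in both Qa-2- libraries with -0.60. Markers of other cells varied with libraries or groups. The summed level of 3 erythroid genes was 331.9 and 643 CPM in WT against 103 and 68.5 CPM in Qa-2- uteri. For 4 epithelial markers the sums were 1632 and 870.5 CPM against 2149 and 2167 CPM. The placental genes Psg21 and Prl3b1 had counts in WT replicate 2 alone, but the placental gene Tpbpa had 4 and 271 counts in WT and 115 and 5 counts in Qa-2- uteri. Afp, a gene of yolk sac and fetal liver, had 13253 counts in Qa-2- replicate 1 against at most 1268 elsewhere. In whole tissue, fewer cells of a type and less RNA per cell cannot be told apart.

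As a group, the 81 genes did not move in one direction between WT and Qa-2- uteri. The median log2 fold change, as WT over Qa-2-, was -0.03 over the 81 genes, with an interquartile range from -0.23 to 0.17, against a median of 0.01 over all 14492 genes. It was positive for 37 genes and negative for 44. A log2 fold change with a size of 0.5 or more was found in 22 of the 81 genes (27.2%), the same share as over all genes (27.2%). The 27 left-out protein-coding genes of the same interval that reached the minimum, the Qa-2 genes among them, had a median of 0.54, and 25 of the 27 had a positive value. For 531 other protein-coding genes of chromosome 17 the median was -0.01.

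In edgeR's quasi-likelihood fit, with p adjusted over all genes after Benjamini and Hochberg, 0 of the 81 genes passed a threshold of 0.05, and 0% of the 14492 genes did. H2-Q6 and H2-Q7, nearly absent from Qa-2- uteri, had an adjusted p of 0.2285 each in this fit. The lack of calls therefore does not show that the 81 genes were unchanged. An unadjusted p under 0.05 was found for 7 genes higher in WT, where the share over all genes was 8.09%, and for 4 genes higher in Qa-2- uteri, where it was 7.09%. These 11 genes make up 13.6% of the 81, against 15.2% of all genes. Without Qa-2- replicate 2 the count was 6 (7.41% of the 81, against 5.64% of all genes) and without WT replicate 2 it was 7 (8.64% against 13.2%). DESeq2's Wald test gave an adjusted p under 0.05 for Neu1 and Gpsm3 as higher in WT (2.79% of all genes) and for Vars2 and Cyp21a1 as higher in Qa-2- uteri (2.04% of all genes), of which Cyp21a1 reached the minimum only through the Qa-2- libraries. Both WT libraries lay above both Qa-2- libraries for 20 genes, where 25.4% of all genes had this order, and the reverse order was found for 21 genes, against 24.5%. These shares are close to those over all genes. Leaving out 1 library moved the log2 fold change by over 1.5 times, or turned its sign, for 50 of the 59 genes with a size under 0.5. The same was found for 10 of the 22 genes with a size of 0.5 or more. This measure is relative, so values near 0 move easily: Abcf1 went from -0.0028 to -0.036 without WT replicate 1. The sign and size of small values below are therefore uncertain.

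**Figure D1:**
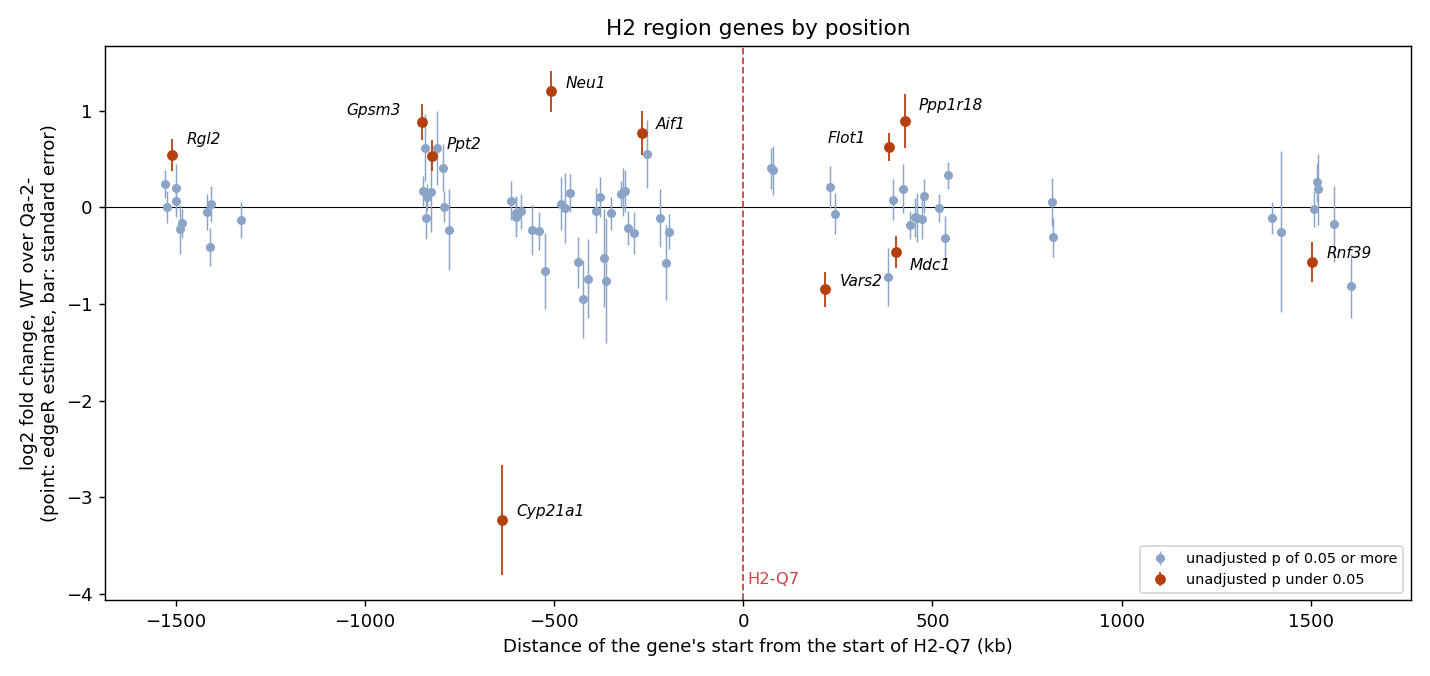
Log2 fold change of the 81 genes (points, edgeR estimate as WT over Qa-2-; bars, standard error) against the distance of the gene's start from the start of H2-Q7 in kb. The 11 genes with an unadjusted p under 0.05 are named; 7 lie above 0 and 4 below, on both sides of H2-Q7, and Cyp21a1 lies lowest at -3.23.

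Position along the interval was described in segments set by H2-K1, H2-D1 and the first H2-T gene. In log2 fold change, the 7 genes before H2-K1 had a median of 0.06 and the 45 genes from H2-K1 to H2-D1 a median of -0.04. The 19 genes from H2-D1 to the first H2-T gene, the segment that holds the Qa-2 genes, had a median of -0.0028, and the 10 genes from there to the end had a median of -0.14. Unadjusted p-values under 0.05 were found for 1, 5, 4 and 1 genes of these segments, in this order (14.3%, 11.1%, 21.1% and 10%, against 15.2% of all genes). Such genes of the segment around Qa-2 lay in both directions, Flot1 and Ppp1r18 higher in WT and Vars2 and Mdc1 higher in Qa-2- uteri, in the plot of fold change by position.

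**Figure D2:**
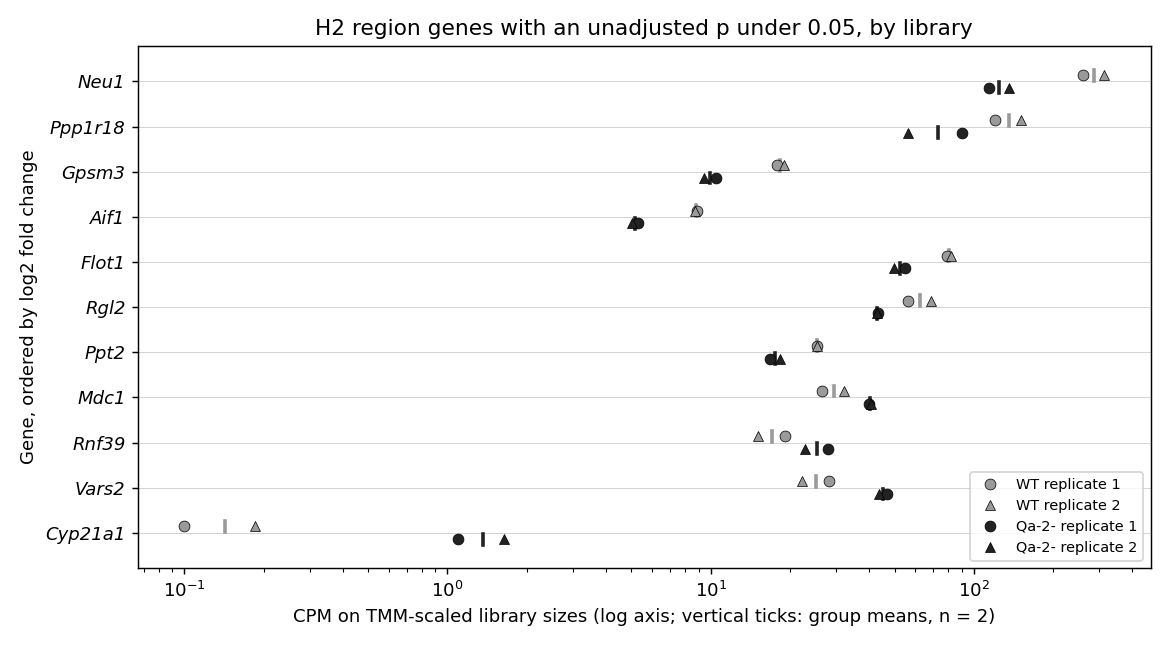
CPM on TMM-scaled library sizes (log axis) in each of the 4 libraries for the 11 genes with an unadjusted p under 0.05; circles are replicate 1, triangles replicate 2, light symbols WT, dark symbols Qa-2-, and vertical ticks the group means. Groups are apart for all 11 genes, which the choice by p favours; Neu1 is the most abundant and Cyp21a1 the least.

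At the centromeric end, 7 genes lie before H2-K1. Rgl2 (chr17:33929543-33937687), which encodes an exchange factor for Ral GTPases, had 56.5 and 68.8 CPM in WT against 43.2 and 42.8 CPM in Qa-2- uteri. Both WT libraries were higher, and the Qa-2- libraries were nearly equal. Its log2 fold change was 0.54 (SE 0.16, adjusted p = 0.281 in edgeR). The other genes here stayed closer together. Daxx, a histone H3.3 chaperone, had 32.8 and 32.01 CPM in WT and 27.9 and 27.02 CPM in Qa-2- uteri, and Vps52, a subunit of a tethering complex for vesicles at the Golgi, had 45.2 and 51.4 CPM in WT and 54.01 and 54.3 CPM in Qa-2- uteri. Daxx was higher in both WT libraries and Vps52 in both Qa-2- libraries, with log2 fold changes of 0.24 and -0.17. Zbtb22, a zinc finger protein gene, had a log2 fold change of 0.0016, Wdr46, for ribosome assembly, 0.06, the prefoldin subunit gene Pfdn6 0.20 and B3galt4, for ganglioside synthesis, -0.23.

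Behind H2-K1 follow Ring1, Slc39a7, Rxrb and Brd2. Brd2, which encodes a bromodomain protein that binds acetylated histones, had 214 and 222 CPM in WT and 225 and 253 CPM in Qa-2- uteri. Both Qa-2- libraries were higher by little, with a log2 fold change of -0.13 (SE 0.19), or -0.04 without Qa-2- replicate 2. The zinc transporter gene Slc39a7 had 12.6 and 11.3 CPM in WT and 14.8 and 16.9 CPM in Qa-2- uteri, with both Qa-2- libraries higher. Of its exon bases, 80.7% are shared with the transcript Gm20427 on the same strand, where a read pair fits both features, and how many pairs of Slc39a7 this removed was not tested. Ring1, a Polycomb gene, and Rxrb, for a retinoid X receptor, overlapped between groups, at -0.04 and 0.03 on the log2 scale.

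Among the 81 genes, the largest fold change after that of Cyp21a1 was that of Neu1 (ENSMUSG00000007038, chr17:34931253-34935953), which encodes the lysosomal sialidase and lies in the class III region. Neu1 had 259.7 and 314 CPM in WT and 114 and 136 CPM in Qa-2- uteri. Both WT libraries were above both Qa-2- libraries, and within each group the libraries were within 1.21-fold of each other. The WT mean was 2.297 times the Qa-2- mean. On average it had 287 ± 38.2 CPM (SD, n = 2) in the WT mice and 125 ± 15.6 CPM (SD, n = 2) in the mice without Qa-2. The log2 fold change was 1.20 (SE 0.21, adjusted p = 0.246 in edgeR), and leaving out 1 library at a time gave values from 1.05 to 1.33. DESeq2's Wald test gave an adjusted p of 0.000146, and over all alternatives its adjusted p ran up to 0.818.

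A further lysosomal enzyme gene of this region, the thioesterase gene Ppt2 (chr17:34616662-34628510), had 25.4 and 25.4 CPM in WT against 16.8 and 18.3 CPM in Qa-2- uteri. The WT libraries were equal, and both lay above the Qa-2- libraries. Its log2 fold change was 0.53 (SE 0.16, adjusted p = 0.281 in edgeR). Of the exon bases of Ppt2, 36.6% are shared with the transcript Gm20460, which had 0 counts in every library. A read pair that fits both features was counted for neither, and how many pairs of Ppt2 this removed was not tested.

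The steroid 21-hydroxylase gene Cyp21a1 (ENSMUSG00000024365, chr17:34801348-34804561), known for its work in adrenal steroid synthesis, had the largest fold change of the 81 genes at a very low level. The WT libraries held 4 and 7 counts and the Qa-2- libraries 39 and 57 counts, which is 0.0999 and 0.186 against 1.101 and 1.63 CPM. Cyp21a1 and Msh5 reached the minimum of 1 CPM through the Qa-2- libraries alone, so their order was favoured by the filter, and the tests of Cyp21a1 are given as a description. The WT counts lie just above the floor of 3 counts, and both Qa-2- libraries were well above them. The mean in Qa-2- uteri was 9.57 times that in WT, and the log2 fold change was -3.23 (SE 0.57, adjusted p = 0.246 in edgeR). DESeq2's Wald test gave an adjusted p of 0.0068, and over all alternatives its adjusted p ran up to 0.818. A similar pseudogene, Cyp21a2-ps, had 0 and 0 counts in WT and 1 and 2 counts in Qa-2- uteri, and how pairs that match both copies were split is uncertain. The minimum of 1 CPM in 2 libraries is decided by the library ranked next to the highest, in which Cyp21a1 had 1.12 CPM of the unscaled total and was the gene nearest to the minimum, followed by Msh5 with 1.23 CPM. Just outside lay Hspa1l with 0.916 CPM and Btnl2 with 0.773 CPM by the same measure.

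Gpsm3 (ENSMUSG00000034786, chr17:34589806-34591754) encodes a regulator of G protein signalling that is known from leukocytes. Its libraries had 17.8 and 19.00 CPM in WT and 10.5 and 9.43 CPM in Qa-2- uteri. The WT libraries were both higher and near-equal, at 1.85 times the mean of Qa-2- uteri. The log2 fold change was 0.89 (SE 0.19, adjusted p = 0.246 in edgeR). With DESeq2's Wald test the adjusted p was 0.0233, and the range over the alternatives reached 0.818. Of its exon bases, 16.9% are shared with its neighbour Pbx2 on the same strand, and Pbx2, for a homeodomain protein, had 41.5 and 47.95 CPM in WT and 39.2 and 40.1 CPM in Qa-2- uteri.

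Of a list of myeloid and immune genes that does not hold Gpsm3, 6 of 10 symbols were among the 81 genes, 3 with a positive and 3 with a negative log2 fold change. Aif1 (chr17:35170991-35176068), which encodes the macrophage protein Iba1, had 8.89 and 8.71 CPM in WT and 5.28 and 5.04 CPM in Qa-2- uteri. Here too both WT libraries lay above both Qa-2- libraries and replicates were nearly equal. Its log2 fold change was 0.77 (SE 0.23, adjusted p = 0.281 in edgeR). The leukocyte gene Lst1 had 2.87 and 4.44 CPM in WT and 2.48 and 2.49 CPM in Qa-2- uteri, so that WT replicate 2 was highest and WT replicate 1 stood close to the Qa-2- libraries, with a log2 fold change of 0.55 (SE 0.36). Without WT replicate 2 the value for Lst1 was 0.20. Ager, for the receptor RAGE, had 2.25 and 2.74 CPM in WT and 1.72 and 1.52 CPM in Qa-2- uteri, again with both WT libraries higher and a log2 fold change of 0.62 (SE 0.35). The other 3 list members overlapped between groups and had negative values, -0.11 for Nfkbil1, -0.52 for Ly6g6d and -0.76 for Ly6g6e. The median of the 6 genes was 0.22 on the log2 scale, Aif1 alone had an unadjusted p under 0.05, and 0 an adjusted p under 0.05.

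Markers of myeloid cells outside the interval were set beside these values. Of 6 markers, 4 were higher in both WT libraries (Adgre1, Cd68, Itgam and Lyz2), Csf1r overlapped between groups, and the pan-leukocyte gene Ptprc was higher in both Qa-2- libraries, with 33.5 and 38.8 CPM in WT and 44.6 and 46.04 CPM in Qa-2- uteri. The summed level of the 6 markers was 847 and 1030.0 CPM in WT against 634 and 539 CPM in Qa-2- uteri. Lyz2 was the most abundant of them, and without it the other 5 markers summed to 312 and 435 CPM in WT against 341 and 246 CPM, with overlap between the groups. Cd68, for a lysosomal protein of macrophages, had 89.4 and 82.1 CPM in WT against 52.97 and 48.2 CPM in Qa-2- uteri. The part of myeloid or erythroid cell content in the levels of Gpsm3, Aif1, Neu1 and Ppt2 was not tested.

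Slc44a4, Ly6g6e and Ly6g6d of the class III region varied between libraries of the same group. Slc44a4, for a choline transporter-like protein of epithelia, had 36.5 and 19.9 CPM in WT and 32.6 and 56.6 CPM in Qa-2- uteri. Ly6g6e had 1.77 and 0.664 CPM in WT and 1.33 and 2.81 CPM in Qa-2- uteri, while Ly6g6d beside it had 1.92 and 1.65 CPM in WT and 1.52 and 3.61 CPM in Qa-2- uteri. WT replicate 2 was lowest for Slc44a4 and Ly6g6e and Qa-2- replicate 2 was highest for all 3 genes, with overlap between the groups. The log2 fold changes were -0.66 (SE 0.39) for Slc44a4, -0.76 (SE 0.64) for Ly6g6e and -0.52 (SE 0.51) for Ly6g6d. Without Qa-2- replicate 2 these were -0.21, -0.12 and 0.23, in this order, so that Ly6g6d turned positive. Without WT replicate 1 they were -1.19, -1.66 and -0.67. The summed level of 4 epithelial markers (Epcam, Krt8, Krt18 and Cdh1) was 1632 and 870.5 CPM in WT against 2149 and 2167 CPM in Qa-2- uteri, lowest in WT replicate 2 and higher in both Qa-2- libraries. Krt8, Krt18 and Cdh1 were each higher in both Qa-2- libraries, Epcam overlapped, and the median log2 fold change of the 4 markers was -0.83, the same direction as for these 3 genes. The 2 Ly6g6 genes were counted in the myeloid and immune list above, and in which cells of these uteri they were expressed, and the part of epithelial content in these values, was not tested. Trim15, a gene of the last segment, had 2.15 and 0.345 CPM in WT and 1.67 and 1.32 CPM in Qa-2- uteri. WT replicate 2 was again lowest, and with 6.22-fold between the WT libraries Trim15 had the widest spread between replicates of the 81 genes.

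The inducible heat shock 70 genes Hspa1b and Hspa1a, which help proteins refold under stress, are adjacent copies. Their promoter windows, from 250 bases before to 50 after the RefSeq start (GRCm38.p6, minus strand), are shown because both genes had the same pattern over the libraries. Capitals mark the heat shock element GAANNTTC, searched on both strands.
Hspa1b (chr17:34959189-34959488): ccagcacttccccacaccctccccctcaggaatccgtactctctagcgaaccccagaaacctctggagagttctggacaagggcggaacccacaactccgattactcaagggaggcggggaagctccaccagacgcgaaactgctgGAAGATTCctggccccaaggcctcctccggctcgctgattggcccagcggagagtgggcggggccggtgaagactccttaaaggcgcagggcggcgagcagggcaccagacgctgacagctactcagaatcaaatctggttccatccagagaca
Hspa1a (chr17:34972107-34972406): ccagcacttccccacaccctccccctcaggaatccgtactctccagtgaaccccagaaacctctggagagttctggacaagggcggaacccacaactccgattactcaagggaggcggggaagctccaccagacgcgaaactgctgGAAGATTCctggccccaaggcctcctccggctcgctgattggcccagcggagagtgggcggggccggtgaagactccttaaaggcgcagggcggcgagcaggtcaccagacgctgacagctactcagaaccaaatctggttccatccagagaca
The windows are identical at 296 of 300 bases (98.7%), and each holds 1 match of the motif. Over all 32851 promoter windows of the RefSeq table, 7.86% hold it, against 12 of the 107 windows (11.2%) of the 69 of the 81 genes with an entry, which belong to 8 genes.

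Hspa1b had 91.5 and 148 CPM in WT and 128 and 105 CPM in Qa-2- uteri. Hspa1a had 19.2 and 36.4 CPM in WT and 32.95 and 22.8 CPM in Qa-2- uteri. In both genes WT replicate 2 was highest, Qa-2- replicate 1 next and WT replicate 1 lowest, and the groups overlapped. The log2 fold changes were 0.04 (SE 0.28) for Hspa1b and -0.01 (SE 0.36) for Hspa1a. These are 2 of the 3 heat shock 70 genes of the interval, and 0 of them had an unadjusted p under 0.05. The copies share sequence, so how read pairs were split between them is uncertain. Of 9 stress genes outside the interval, 4 had the same 2 libraries highest: Fos, Fosb, Egr1 and Jun. Fos had 34.7 and 77.7 CPM in WT and 66.7 and 26.1 CPM in Qa-2- uteri and Egr1 34.95 and 78.6 CPM in WT and 48.6 and 25.2 CPM in Qa-2- uteri. The other 5 did not have this order: Hsph1, Hspa8 and Junb were higher in both WT libraries, Atf3 was higher in both Qa-2- libraries, and Dnajb1 overlapped with another order. The chaperone gene Hsph1 had 60.6 and 64.3 CPM in WT and 47.2 and 37.4 CPM in Qa-2- uteri.

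Tnxb (chr17:34660457-34719815), which encodes the matrix protein tenascin-X, also had WT replicate 2 and Qa-2- replicate 1 as its highest libraries. It had 183 and 383 CPM in WT and 400.4 and 264 CPM in Qa-2- uteri, so that WT replicate 1 and Qa-2- replicate 2 were the lower libraries of their groups and the groups overlapped. WT replicate 2 and Qa-2- replicate 1 were the highest libraries for 10 of the 81 genes (12.3%), against 18.2% of all genes. The opposite order, with WT replicate 1 and Qa-2- replicate 2 highest, was found for 19 genes (23.5%), against 17.5% of all genes. Rnf5, Clic1, Abhd16a, Nfkbil1 and Ddr1 are among these 19.

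**Figure D3:**
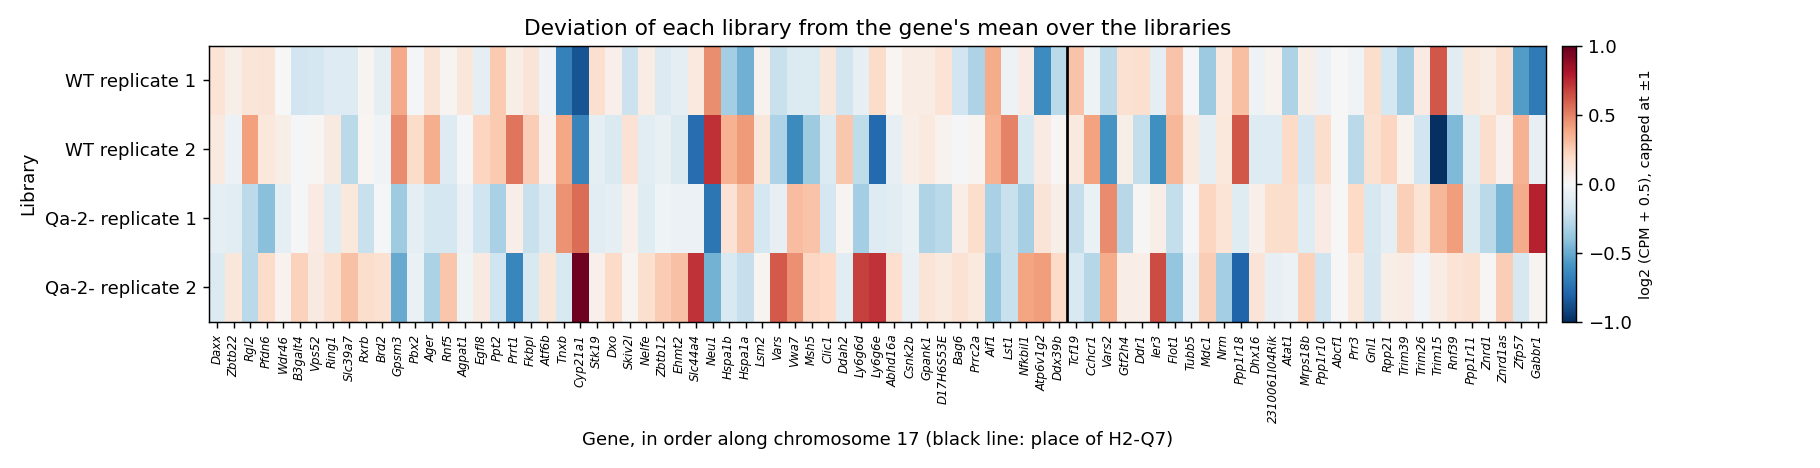
Deviation of each library (rows) from the gene's mean over the 4 libraries, as log2 (CPM + 0.5) capped at ±1, for the 81 genes in order along chromosome 17 (columns; black line, place of H2-Q7). Red is above and blue below the mean; Neu1 is red in both WT rows, Vars2 in both Qa-2- rows, and Tnxb and Hspa1a in WT replicate 2 and Qa-2- replicate 1.

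Chromatin, RNA and chaperone genes along the class III region had both orders: Pbx2, Lsm2 and Fkbpl were higher in both WT libraries, and Ehmt2, Prrc2a, Bag6 and Ddx39b in both Qa-2- libraries. Ehmt2, for the histone H3 lysine 9 methyltransferase G9a, had 142 and 136 CPM in WT and 145 and 185 CPM in Qa-2- uteri. Qa-2- replicate 2 was highest, and Qa-2- replicate 1 lay just above the WT libraries. Prrc2a, which encodes an RNA-binding protein, had 246 and 310.3 CPM in WT and 344 and 326 CPM in Qa-2- uteri, and the chaperone gene Bag6 had 146 and 164 CPM in WT and 175 and 185 CPM in Qa-2- uteri. The helicase gene Ddx39b, for mRNA splicing and export and the nearest of the 81 genes before the Qa-2 genes, had 108 and 132 CPM in WT and 136 and 149 CPM in Qa-2- uteri. In the order given, these 4 genes had log2 fold changes of -0.25, -0.27, -0.21 and -0.25. Single libraries carried part of this: Ehmt2 was at -0.06 without Qa-2- replicate 2, and Prrc2a and Ddx39b were at -0.14 and -0.14 without WT replicate 1. The adjusted p of each by edgeR's quasi-likelihood test was 0.5502 or more.

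The lists of known roles hold few genes each, and their counts stand beside shares over all genes of 8.09% and 7.09% for an unadjusted p under 0.05 and of 25.4% and 24.5% for groups that do not overlap, higher in WT and in Qa-2- uteri. Of these lists, 12 of 15 chromatin and transcription genes were among the 81, with a median of 0.02 on the log2 scale, 4 higher in both WT and 3 in both Qa-2- libraries, and 0 had an unadjusted p under 0.05. All 17 genes of the list for RNA and translation were among the 81. They had a median of -0.06, 3 were higher in both WT and 6 in both Qa-2- libraries, and Vars2 alone had an unadjusted p under 0.05. For protein folding and turnover, 6 of 7 genes were present with a median of -0.11 and 0 had an unadjusted p under 0.05. The cytoskeleton and traffic list had 8 of 10 genes and a median of 0.02, and 3 genes had an unadjusted p under 0.05, Rgl2, Flot1 and Ppp1r18, all higher in WT. Metabolism and lipid genes numbered 9 of 11, with a median of -0.06, and the 3 with an unadjusted p under 0.05 were Neu1 and Ppt2, higher in WT, and Cyp21a1, higher in Qa-2- uteri. Of the list for surface, matrix and signals, 10 of 13 genes were present with a median of -0.15, and 1 of them had an unadjusted p under 0.05, higher in Qa-2- uteri. This was Mdc1, which like the list member Msh5 encodes a nuclear protein of DNA repair or recombination and not one of surface or matrix.

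The valyl-tRNA synthetase genes lie on opposite sides of the Qa-2 genes. Vars2 (ENSMUSG00000038838, chr17:35655634-35667592) encodes the mitochondrial enzyme and had 28.1 and 22.3 CPM in WT and 46.9 and 43.8 CPM in Qa-2- uteri. Both Qa-2- libraries were higher than both WT libraries, and the mean was 1.802 times that of WT. On average it had 25.2 ± 4.099 CPM (SD, n = 2) in the WT mice and 45.3 ± 2.25 CPM (SD, n = 2) in the mice without Qa-2. Its log2 fold change was -0.85 (SE 0.18, adjusted p = 0.246 in edgeR). DESeq2's Wald test gave an adjusted p of 0.0241, with up to 0.818 over the alternatives. Vars, for the cytosolic enzyme, had 99.3 and 93.5 CPM in WT and 109 and 177 CPM in Qa-2- uteri. Here Qa-2- replicate 2 stood apart, and without it the log2 fold change was -0.18, against -0.57 (SE 0.27) with all libraries. Gtf2h4, a subunit gene of the transcription factor TFIIH next to Vars2, overlapped between groups with 13.3 and 12.4 CPM in WT and 9.74 and 12.5 CPM in Qa-2- uteri.

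Most remaining genes of the class III region lay close to level. Clic1, for a chloride channel protein, had 275 and 231 CPM in WT and 225 and 293 CPM in Qa-2- uteri. Agpat1, an enzyme gene of phosphatidic acid synthesis, had 70.8 and 64.7 CPM in WT and 62.5 and 63.5 CPM in Qa-2- uteri, and Csnk2b, for the regulatory subunit of casein kinase 2, had 63.9 and 63.8 CPM in WT and 58.2 and 57.6 CPM in Qa-2- uteri. Clic1 overlapped between groups, while Agpat1 and Csnk2b were higher in both WT libraries by small amounts, at 0.10 and 0.14 on the log2 scale. Fkbpl, for a chaperone partner, had 6.79 and 7.39 CPM in WT and 5.195 and 5.47 CPM in Qa-2- uteri, and Egfl8 had 1.12 and 1.51 CPM in WT and 1.02 and 1.35 CPM in Qa-2- uteri. Fkbpl was higher in both WT libraries with a log2 fold change of 0.41 (SE 0.24), and Egfl8 overlapped at 0.16 (SE 0.41). Lsm2, for a splicing protein, was also higher in both WT libraries at 0.15, and Zbtb12 was higher in both Qa-2- libraries at -0.23. Rnf5, Atf6b, Stk19, Dxo, Skiv2l, Nelfe, Ddah2, Abhd16a, Gpank1 and D17H6S53E overlapped between groups, with log2 fold changes from -0.11 to 0.17. Prrt1 overlapped as well, with 5.89 and 8.42 CPM in WT and 5.93 and 3.41 CPM in Qa-2- uteri, where Qa-2- replicate 2 was lowest and the log2 fold change was 0.62 (SE 0.38), or 0.27 without that library.

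Vwa7, Msh5 and Atp6v1g2, genes with few read pairs, had the same direction as Vars2. Others with few read pairs had the opposite direction, such as Ager and Lst1 with log2 fold changes of 0.62 and 0.55. Vwa7 had 1.67 and 1.04 CPM in WT and 2.46 and 2.78 CPM in Qa-2- uteri, and Msh5, known from meiotic recombination, had 0.824 and 0.638 CPM in WT and 1.27 and 1.18 CPM in Qa-2- uteri. Both Qa-2- libraries were higher for each, which for Msh5 the filter favoured. The log2 fold changes were -0.95 (SE 0.40) for Vwa7 and -0.74 (SE 0.41) for Msh5. Atp6v1g2, a subunit gene of the proton pump of vesicles, had 2.297 and 4.09 CPM in WT and 4.24 and 5.27 CPM in Qa-2- uteri, where WT replicate 1 was lowest and WT replicate 2 lay close to Qa-2- replicate 1. Its log2 fold change was -0.57 (SE 0.39), which was -0.24 without WT replicate 1 and -1.05 without WT replicate 2. Its neighbour Nfkbil1 overlapped between groups, with 16.2 and 13.7 CPM in WT and 12.03 and 20.2 CPM in Qa-2- uteri.

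Behind the Qa-2 genes, Tcf19 and Cchcr1 come first, 73.6 and 77.9 kb from the start of H2-Q7. Tcf19, a gene that is active in proliferating cells, had 12.2 and 10.7 CPM in WT and 8.33 and 8.88 CPM in Qa-2- uteri. Cchcr1, for a coiled-coil protein, had 10.01 and 13.9 CPM in WT and 9.91 and 8.42 CPM in Qa-2- uteri. Both WT libraries were higher for each gene, and the log2 fold changes were 0.41 (SE 0.21) and 0.38 (SE 0.26), the latter 0.12 without WT replicate 2. Of 5 proliferation markers, Cdk1 and Birc5 were also higher in both WT libraries, while Mki67, Top2a and Ccnb1 overlapped, and their summed level was 92.7 and 92.9 CPM in WT against 89.7 and 61.0 CPM. The collagen receptor gene Ddr1, the next after Gtf2h4, had 231 and 176 CPM in WT and 209 and 216 CPM in Qa-2- uteri, with overlap between groups.

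A group of genes from 382.5 to 426 kb behind the start of H2-Q7 held differences in both directions side by side. Ier3 (chr17:35821684-35822923), an immediate early gene that counters cell death, had 186 and 129 CPM in WT and 206 and 311 CPM in Qa-2- uteri. Both Qa-2- libraries were higher, with Qa-2- replicate 2 apart from the other libraries, and the log2 fold change was -0.72 (SE 0.30, adjusted p = 0.347 in edgeR). Without Qa-2- replicate 2 it was -0.39. Flot1 (chr17:35823230-35832791), which follows Ier3 and encodes the membrane scaffold protein flotillin 1, had 79.4 and 82.1 CPM in WT and 54.95 and 49.7 CPM in Qa-2- uteri. Replicates of Flot1 were close and both WT libraries were higher, with a log2 fold change of 0.63 (SE 0.14, adjusted p = 0.254 in edgeR). Tubb5, for a beta tubulin, had 462 and 499 CPM in WT and 461 and 448 CPM in Qa-2- uteri and stayed level, with a log2 fold change of 0.08 (SE 0.21).

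Mdc1 (chr17:35841515-35859670), a mediator of the response to DNA breaks, had 26.5 and 32.1 CPM in WT and 39.9 and 40.8 CPM in Qa-2- uteri. The Qa-2- libraries were nearly equal and both above WT, with a log2 fold change of -0.46 (SE 0.17, adjusted p = 0.313 in edgeR). Ppp1r18 (chr17:35865593-35875596), which encodes an actin-binding partner of protein phosphatase 1, had 121 and 151 CPM in WT and 90.2 and 56.04 CPM in Qa-2- uteri. Both WT libraries were higher, although the Qa-2- libraries differed from each other by 1.61-fold. Its log2 fold change was 0.89 (SE 0.28, adjusted p = 0.287 in edgeR), and without Qa-2- replicate 2 it was 0.59. Between Mdc1 and Ppp1r18 lies Nrm, for a nuclear membrane protein, with 10.8 and 10.9 CPM in WT and 11.2 and 7.88 CPM in Qa-2- uteri and overlap between groups.

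In the rest of this segment the values stayed closer. Abcf1, a gene for translation initiation, was the most constant of the 81, with 91.5 and 90.8 CPM in WT and 91.6 and 90.99 CPM in Qa-2- uteri, a ratio of 1.01 between the highest and the lowest library. Gnl1, for a GTP-binding protein, had 62.8 and 61.7 CPM in WT and 49.7 and 49.3 CPM in Qa-2- uteri, higher in both WT libraries with a log2 fold change of 0.33 (SE 0.14). The helicase gene Dhx16 had 49.6 and 46.8 CPM in WT and 53.2 and 56.3 CPM in Qa-2- uteri, higher in both Qa-2- libraries with -0.18 (SE 0.14). Prr3 was higher in both Qa-2- libraries at -0.32, and 2310061I04Rik, Atat1, Mrps18b and Ppp1r10 overlapped between groups, with log2 fold changes from -0.12 to 0.12. In all, the highest library was within 1.5-fold of the lowest for 48 of the 81 genes and more than 2-fold above it for 15.

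The last segment, from the first H2-T gene on, holds 10 genes between Rpp21 and Gabbr1. Rnf39 (chr17:36942918-36947986), a RING finger gene, had 19.1 and 15.1 CPM in WT and 27.8 and 22.8 CPM in Qa-2- uteri. Both Qa-2- libraries were higher, with a log2 fold change of -0.56 (SE 0.21, adjusted p = 0.315 in edgeR). Gabbr1, for a subunit of the GABA-B receptor, had 29.9 and 46.4 CPM in WT and 83.97 and 50.1 CPM in Qa-2- uteri. WT replicate 2 lay just below Qa-2- replicate 2, and Qa-2- replicate 1 was well above the others. The log2 fold change of Gabbr1 was -0.81 (SE 0.33, adjusted p = 0.343 in edgeR), and without Qa-2- replicate 1 it was -0.39. Zfp57, a regulator of imprinted genes, had 6.49 and 12.6 CPM in WT and 12.8 and 8.68 CPM in Qa-2- uteri, with WT replicate 2 and Qa-2- replicate 1 highest. Trim39, for a ubiquitin ligase, was higher in both Qa-2- libraries with 16.6 and 21.7 CPM in WT and 25.04 and 22.4 CPM in Qa-2- uteri, and Znrd1, for a subunit of RNA polymerase I, higher in both WT libraries with 14.7 and 15.8 CPM in WT and 11.5 and 14.01 CPM in Qa-2- uteri. Rpp21, Trim26, Ppp1r11 and Znrd1as overlapped between groups, with log2 fold changes from -0.11 to 0.19.

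The arrangement of these genes was compared with other protein-coding genes at the minimum. The median gap to the nearest protein-coding gene was 212 bases for the 81 genes and 2753 bases for all 13400. A divergent partner, a gene on the other strand whose start lies within 1000 bases head to head, was found for 22 of the 81 genes (27.2%), against 13.5% of all. Promoter windows were compared with a different set, all 32851 windows of 27025 symbols in the RefSeq table, without a filter on level or gene type. Windows of the 69 genes with an entry had a median GC content of 59.7%, against 52.7% over all windows in the table. Windows of other genes at the minimum were not taken apart, so these shares are not shown to be particular to the 81 genes. The GC box GGGCGG, searched on both strands, was found for 49 of the 69 genes (71.0%), against 35.7% of all windows. A gene can have several windows in the table, and per window the GC box was found in 67 of the 107 windows of these genes (62.6%).

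**Figure D4:**
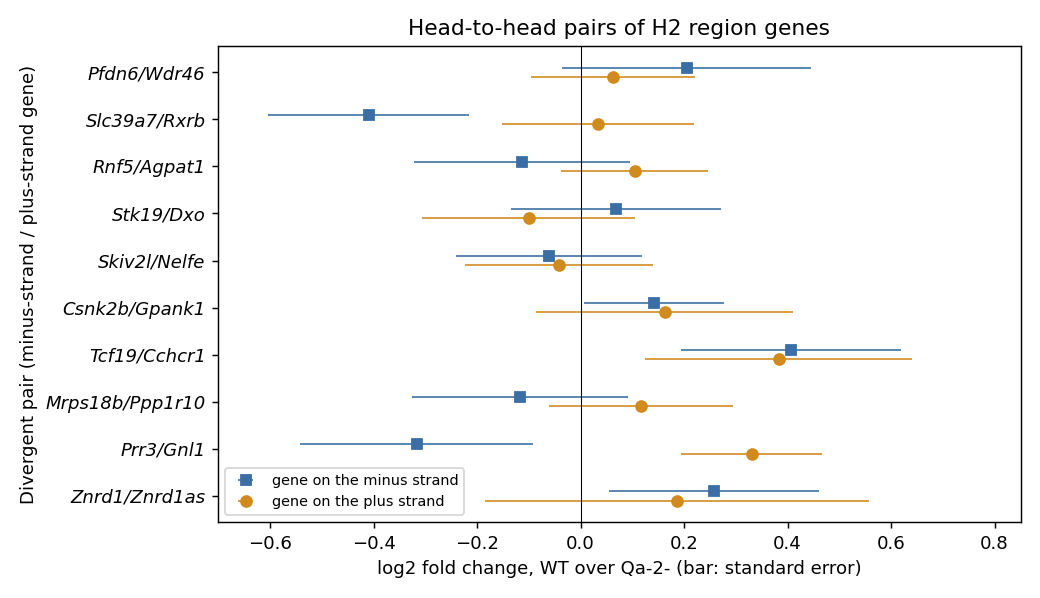
Log2 fold change as WT over Qa-2- (squares, gene on the minus strand; circles, gene on the plus strand; bars, standard error) for the 10 head-to-head pairs of these genes, in order along the chromosome. Tcf19/Cchcr1 and Skiv2l/Nelfe lie close together, while Prr3/Gnl1 lie on opposite sides of 0.

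Head-to-head neighbours had fold changes of the same sign in 5 of 10 pairs and of opposite sign in 5. The median gap between the log2 fold changes of a pair was 0.16. Skiv2l, a helicase gene of RNA decay, and Nelfe, a subunit gene of a complex that pauses RNA polymerase II, start 181 bases apart. They had -0.06 and -0.04. Tcf19 and Cchcr1 start 276 bases apart and had 0.41 and 0.38. The widest gap was 0.65, between Prr3 at -0.32 and Gnl1 at 0.33, followed by 0.44 between Slc39a7 at -0.41 and Rxrb at 0.03.

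Windows of a pair with like values and a pair with unlike values, by the fit of all libraries, are shown (GRCm38.p6, minus strand, RefSeq). This contrast was not stable when 1 library was left out. Without WT replicate 2, Tcf19 and Cchcr1 had log2 fold changes of 0.49 and 0.12. Without Qa-2- replicate 1, Slc39a7 and Rxrb had -0.50 and -0.15. A link between these sequences and the values was not tested. Capitals mark the CCAAT box CCAAT and the GC box GGGCGG in either orientation.
Tcf19 (chr17:35516775-35517074): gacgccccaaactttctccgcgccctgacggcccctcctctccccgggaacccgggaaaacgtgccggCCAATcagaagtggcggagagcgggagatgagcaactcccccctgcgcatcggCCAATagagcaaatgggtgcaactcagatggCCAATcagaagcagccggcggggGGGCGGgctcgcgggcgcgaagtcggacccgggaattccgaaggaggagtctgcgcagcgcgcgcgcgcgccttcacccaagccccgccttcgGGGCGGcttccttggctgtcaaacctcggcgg
Slc39a7 (chr17:34031641-34031940): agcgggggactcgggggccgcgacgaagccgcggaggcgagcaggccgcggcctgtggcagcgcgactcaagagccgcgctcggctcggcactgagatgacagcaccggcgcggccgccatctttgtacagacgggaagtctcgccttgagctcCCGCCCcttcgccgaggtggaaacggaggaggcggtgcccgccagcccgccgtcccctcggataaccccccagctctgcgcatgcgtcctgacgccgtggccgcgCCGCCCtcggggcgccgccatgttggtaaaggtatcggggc
The window of Tcf19 holds 3 CCAAT boxes and 2 GC boxes, and a RefSeq start of Cchcr1 lies at its base 26. The window of Slc39a7 holds 0 CCAAT boxes and 2 GC boxes, with the start of Rxrb at base 129. CCAAT is found in 37.4% of all windows and in 34 of the 107 windows of these genes (31.8%), which belong to 31 of the 69 genes. A match describes letters, not a binding site.

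Compared per exon length, as length-scaled transcript levels (TPM, each library scaled to the same total, mean over the 4 libraries), Ier3 had the highest level of the 81 genes at 551 TPM, then Clic1, for a chloride channel protein, at 422 TPM and Tubb5 at 418 TPM. Neu1 followed at 161 TPM. Ddr1, Hspa1b, Prrc2a and Ddx39b came next, between 104 and 129 TPM. The order of the means did not hold in every library. Ier3 ran from 336 to 840 TPM, while the lowest values of Clic1 and Tubb5 were 377.5 and 378.4 TPM. The lowest means were those of Msh5 at 0.531 TPM and Cyp21a1 at 1.09 TPM. Over the libraries Msh5 ran from 0.339 to 0.732 TPM and Cyp21a1 from 0.127 to 2.33 TPM, and in WT Cyp21a1 was the lower of them. The 40 genes under the minimum included the third heat shock 70 gene Hspa1l, with 17 and 26 counts in WT and 32 and 31 counts in Qa-2- uteri. Apom, for an apolipoprotein, had 88 counts in Qa-2- replicate 1, the library with the Afp counts, and at most 11 counts elsewhere.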

How the data were processed

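The authors extracted RNA from 4 snap-frozen uteri and sequenced directional poly(A) libraries in pairs. The submitters' processing notes name STAR 2.7.3a, featureCounts 2.0.0 and the GRCm38.p6 genome. The deposited values are raw counts of read pairs per Ensembl gene, 1 file per mouse. GENCODE M21 symbols matched 55240 gene IDs, and 181 had none. Genes with at least 1 CPM (by unscaled totals) in at least 2 libraries were kept (14492). This is the threshold that the study names, but its own filtered set was not rebuilt and held a different number of genes. Groups come from the labels, and p-values measure the spread between 2 mice per group. The study names no test for these data. Here R 4.3.3 was used with edgeR 4.0.16 (TMM scaling, glmQLFit and glmQLFTest, Benjamini-Hochberg adjustment over all 14492 genes), and DESeq2 1.42.0 was an alternative. Printed CPM use TMM-scaled library sizes. Counts of 3 are the floor, 0.0731 to 0.0901 CPM, which covers counting error only. Other alternatives were upper-quartile scaling, library totals, no filter, 10 counts in every library, a replicate block and each library left out.

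The members and lists were chosen with earlier results of these data known. By the rule for named genes, full values go to genes with an unadjusted p under 0.05 or with separate groups and a log2 fold change of size 0.5 or more, to the 5 nearest genes on each side of H2-Q7, and to list members with the highest and lowest values. Others were added for their role or library pattern after their values were seen. On data simulated for this comparison over 14492 genes, 13 of 100 genes changed by 1 on the log2 scale and 83 of 100 changed by 2 were called, as were 13 unchanged genes. In the mice, the same edgeR fit called 0% of the 14492 genes. Even H2-Q6 and H2-Q7, with log2 fold changes of 9.59 and 10.07, had an adjusted p of 0.2285 each. The simulated rates therefore do not carry over to these data, and a gene without a call is not shown to be unchanged. Promoter windows came from RefSeq and matched 69 of the 81 genes.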

Additional observations from a re-analysis of the deposited data

How the results depend on the processing

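No adjusted p of the 81 genes passed 0.05 in edgeR under any alternative run, leaving out each library included (0 to 0 genes), while DESeq2 called 4. The count at an unadjusted p under 0.05, 11 with all libraries, was 6 without Qa-2- replicate 2 (7.41% of the 81, with 5.64% of all genes), 7 without WT replicate 2 (8.64%, 13.2%) and at most 12 without another library (14.8%, 15.8%). With the replicate number as a block it was 6 (7.41%, 9.18%). Same-numbered libraries deviated in opposite directions (correlation of deviations -0.39), and the crossed pairing, added after seeing the data, gave 18 (22.2%, 25.01%). The numbers name the mice and were not taken as pairs. The median log2 fold change was -0.13 with library totals in place of TMM factors (-0.08 over all genes) and ran from -0.071 to 0.074 as each library was left out, against -0.03. The sign changed under at least 1 alternative for 36 of the 81 genes, the largest of them at a size of 0.52, and under none for 45.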
